A study of Oryza sativa with 14 samples.

Results

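Rubisco fixes CO2 in the Calvin cycle of the chloroplast. Its large subunit is encoded in the chloroplast genome, and its small subunit by a family of nuclear RbcS genes whose copies are close in sequence. Rubisco activase, encoded by RCA, frees Rubisco's active sites from bound sugar phosphates that block them, and the plant enzyme is known for losing activity at high temperature. Rice makes a larger and a smaller activase by alternative splicing of the RCA transcript, which counts per gene do not separate.

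The genes described here are RCA (LOC_Os11g47970, chromosome 11) and a list of 5 RbcS loci, of which 4 lie on chromosome 12 and 1, LOC_Os02g05830, on chromosome 2. They were chosen by locus ID and not by a rule on their values, though earlier results of these data were known. Of the 6 loci, 5 have a row among the 55986 rows of the count table, and all 5 passed the filter on low counts that left 28823 tested genes. LOC_Os12g19394 is not analysed here. The 3 chromosome 12 copies with a row, LOC_Os12g17600, LOC_Os12g19381 and LOC_Os12g19470, may share reads, so the split of counts among them is uncertain and their sum is given beside them.

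The series profiled leaf mRNA of rice seedlings at the 4-leaf stage to look for genes downstream of HTG3. Wild type (WT) is the cultivar Zhonghua 11 (ZH11). The htg3 mutant is represented by the transgenic lines cr12 and cr2, and the labels give neither the locus of HTG3 nor its altered sequence, so the targeted gene was not checked. Plants of each genotype stayed at normal temperature or were held at 42 °C for 0.5 h. This gives 3 untreated and 3 heat-treated WT libraries, and 2 untreated and 2 heat-treated libraries of each line, 14 in all.

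Libraries held 92 M to 99.4 M counts (M, mega). Leaf markers were high, with the light-harvesting gene LOC_Os01g41710 at 4844 to 11885 CPM (counts per 1 M counts, on library sizes scaled by TMM) and another light-harvesting gene, LOC_Os01g52240, ranging from 0 to 1903 CPM. The root silicon transporter LSI2 was at 0 in all libraries and the root genes NRT2.1, AMT1;2 and RCC3 stayed under 1 CPM, while LSI1 ranged from 4.75 to 27.2 CPM. Of the 5 root markers, LSI1 was called higher after heat in WT and LSI1 and RCC3 in the htg3 lines, RCC3 from 0 in all untreated libraries. Of all tested genes 24.8% were called higher in WT and 27.6% in the htg3 lines. The summed root markers stood at 4.79 to 9.98 CPM without heat and at 14.1 to 27.4 CPM after it. The meristem gene OSH1 reached at most 0.0861 CPM, and PCNA, a gene of dividing cells, ranged from 6.41 to 32.3 CPM and was called higher after heat in WT (0.82 ± 0.24) and in the htg3 lines (1.57 ± 0.21). HSP101, a chaperone induced by heat, stood at 0.571 to 8.73 CPM without heat and at 2971 to 7093 CPM after it. Replicates of a group differed by more than sampling noise in every pair. Nothing in the labels says that replicates came from separate plants, so p-values measure only the spread between these samples.

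RCA fell more than any RbcS copy after heat, in WT and in both lines. In untreated WT it stood at 15568, 17362 and 14970.4 CPM in replicates 1 to 3, and after heat at 2175, 1678 and 1098 CPM. In cr12 it stood at 17419.6 and 17053 CPM without heat and at 1209 and 809 CPM after it. In cr2 the untreated values were 16037 and 18372 CPM and the heat-treated values 1647 and 1867 CPM. No heat-treated library reached the lowest untreated one, and the lowest level of all was in cr12_heat replicate 2. Of all tested genes 32.2% were likewise lower without overlap in WT, 38.1% in cr12, 35.3% in cr2 and 18% over all 14 libraries.

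The mean level of RCA after heat was 10.3% of that without heat in WT, 5.86% in cr12 and 10.2% in cr2, a fall of 9.67-fold, 17.1-fold and 9.79-fold. The log2 change was -3.27 ± 0.24 (SE) in WT (n = 3 and 3, edgeR quasi-likelihood test, Benjamini-Hochberg adjusted p = 4.1e-07). It was -3.69 ± 0.21 over both htg3 lines, weighted equally (n = 4 and 4, edgeR, adjusted p = 3.5e-08). As a share of all counts, RCA went from 1.59 to 1.88% in untreated libraries to 0.0761 to 0.208% after heat.

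Falls of this size were uncommon. Of all tested genes 1033 (3.58%) had a lower log2 change than RCA in WT and 728 (2.53%) in the htg3 lines. Among the 1858 genes with a mean of at least 100 CPM, 29 and 25 lay lower. A fall by at least 3 on the log2 scale was called for 2.55% of tested genes in WT and 2.58% in the htg3 lines. The median over all tested genes was -0.05 in WT and -0.03 in the htg3 lines.

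**Figure D1:**
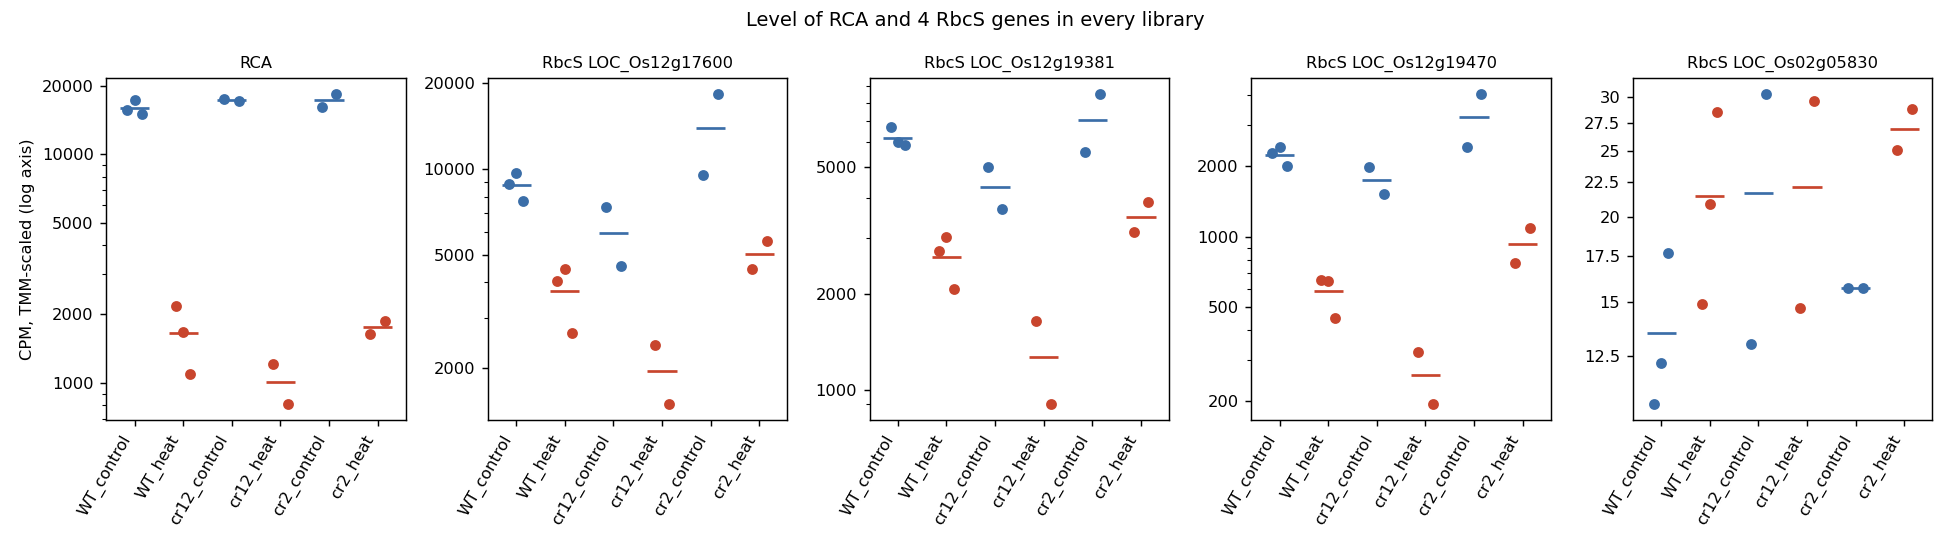
Level of RCA and of 4 RbcS genes in each of the 14 libraries, in CPM on TMM-scaled library sizes (vertical log axis, with its own range in each panel). Points are libraries, blue untreated and red heat-treated, and bars are group means. RCA lies at 14970.4 to 18372 CPM in the untreated libraries and at 809 to 2175 CPM after heat, and the chromosome 2 copy LOC_Os02g05830 overlaps between treatments in WT and cr12.

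The 3 chromosome 12 RbcS copies fell too, each by less than RCA. LOC_Os12g17600 stood at 8858, 9666 and 7745 CPM in untreated WT and at 4059, 4460 and 2651 CPM after heat. In cr12 it went from 7324 and 4569 CPM to 2418 and 1493 CPM. In cr2 it went from 9546 and 18333 CPM to 4465 and 5603 CPM. Treatments did not overlap within any genotype, as in the same direction for 32.2% of tested genes in WT, 38.1% in cr12 and 35.3% in cr2. Across genotypes the lowest untreated library (cr12_control replicate 2) lay under the highest heat-treated one (cr2_heat replicate 2).

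LOC_Os12g19381 stood at 6693, 6031 and 5899.7 CPM in untreated WT and at 2727, 3012 and 2079.8 CPM after heat. In cr12 it went from 5003 and 3699 CPM to 1639 and 899 CPM, and in cr2 from 5604 and 8519 CPM to 3128 and 3881 CPM. Again treatments did not overlap within a genotype, against the same shares of tested genes, and cr12_control replicate 2 lay under cr2_heat replicate 2.

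LOC_Os12g19470 stood at 2286, 2422 and 2008 CPM in untreated WT and at 657, 648 and 451 CPM after heat. In cr12 it went from 1979.8 and 1523 CPM to 325 and 193 CPM, and in cr2 from 2404 and 4061 CPM to 773 and 1091 CPM. For this copy, as for RCA and 18% of tested genes, every heat-treated library lay under every untreated one over all 14 libraries.

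Of the 5 genes 4 were called lower after heat in WT, where 26.3% of all tested genes were called lower, and the same 4 in the htg3 lines, where 28.5% were. In WT the log2 change was -1.23 ± 0.29 for LOC_Os12g17600 (edgeR, adjusted p = 0.0037), -1.25 ± 0.24 for LOC_Os12g19381 (adjusted p = 0.00091) and -1.94 ± 0.26 for LOC_Os12g19470 (adjusted p = 5e-05). In the htg3 lines it was -1.54 ± 0.25 for LOC_Os12g17600 (edgeR, adjusted p = 0.00025), -1.39 ± 0.21 for LOC_Os12g19381 (adjusted p = 0.00011) and -2.28 ± 0.22 for LOC_Os12g19470 (adjusted p = 3.2e-06). All 4 genes stayed called lower in both comparisons when any 1 of the 14 libraries was left out.

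Summed, the 3 copies stood at 17837, 18119 and 15652 CPM in untreated WT and at 7443, 8121 and 5182 CPM after heat. In cr12 the sum went from 14307 and 9791 CPM to 4382 and 2585 CPM, and in cr2 from 17554 and 30912 CPM to 8366 and 10575 CPM. The mean of the sum was 2.49-fold lower after heat in WT, 3.46-fold in cr12 and 2.56-fold in cr2. The sum took 1.08 to 2.93% of counts without heat and 0.243 to 1.02% after it. Fitted as 1 row, it fell by a log2 change of -1.31 ± 0.27 in WT and -1.57 ± 0.24 in the htg3 lines.

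These are levels in whole-leaf RNA, in which fewer cells of a type and less RNA per cell cannot be told apart. Of the 5 leaf markers 1 was called lower in WT and 2 in the htg3 lines, where 26.3% and 28.5% of tested genes were. In WT the light-harvesting genes LOC_Os01g41710, LOC_Os09g17740 and LOC_Os01g52240 gave log2 changes of -0.32 ± 0.18, 0.04 ± 0.19 and 0.61 ± 1.35 without a call, the carbonic anhydrase gene CA1 gave -0.64 ± 0.28 without a call, and PSBS1, which encodes a protein of energy dissipation in photosystem II, fell by 0.77 ± 0.13 (edgeR, adjusted p = 0.00038). In the htg3 lines CA1 (-0.92 ± 0.24, edgeR, adjusted p = 0.0067) and PSBS1 (-0.88 ± 0.11) were called lower, and the light-harvesting genes gave -0.14 ± 0.15, -0.14 ± 0.16 and -1.95 ± 1.20 in the same order, without a call. The summed leaf markers ran from 17702 to 20105 CPM in untreated WT and from 13132 to 18279.6 CPM after heat. In cr12 the sum lay at 12958 to 15872 CPM without heat and at 10759 to 13329 CPM after it. In cr2 it lay at 19469.8 to 32048 CPM without heat and at 19435 to 20885 CPM after it. LSI1 and PCNA were called higher after heat in both, as given above. The part of these genes in the falls of RCA and RbcS was not tested.

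LOC_Os02g05830, a more distant RbcS copy, was scarce in these leaves and was not called in either heat comparison. It stood at 10.6, 12.2 and 17.7 CPM in untreated WT and at 14.9, 20.9 and 28.5 CPM after heat. In cr12 the values were 13 and 30.3 CPM without heat and 14.7 and 29.6 CPM after it, and in cr2 they were 15.7 and 15.7 CPM against 25.1 and 28.8 CPM. Treatments overlapped in WT and in cr12 and did not in cr2, where 35.2% of tested genes were higher without overlap. The log2 change was 0.66 ± 0.34 in WT (95% interval -0.01 to 1.34, edgeR, adjusted p = 0.13) and 0.40 ± 0.30 in the htg3 lines (-0.18 to 0.98, adjusted p = 0.27). Without cr12_control replicate 2 the value in the htg3 lines was 0.80 and passed the threshold (edgeR, adjusted p = 0.036; range over the 14 libraries left out in turn 0.036 to 0.79).

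**Figure D2:**
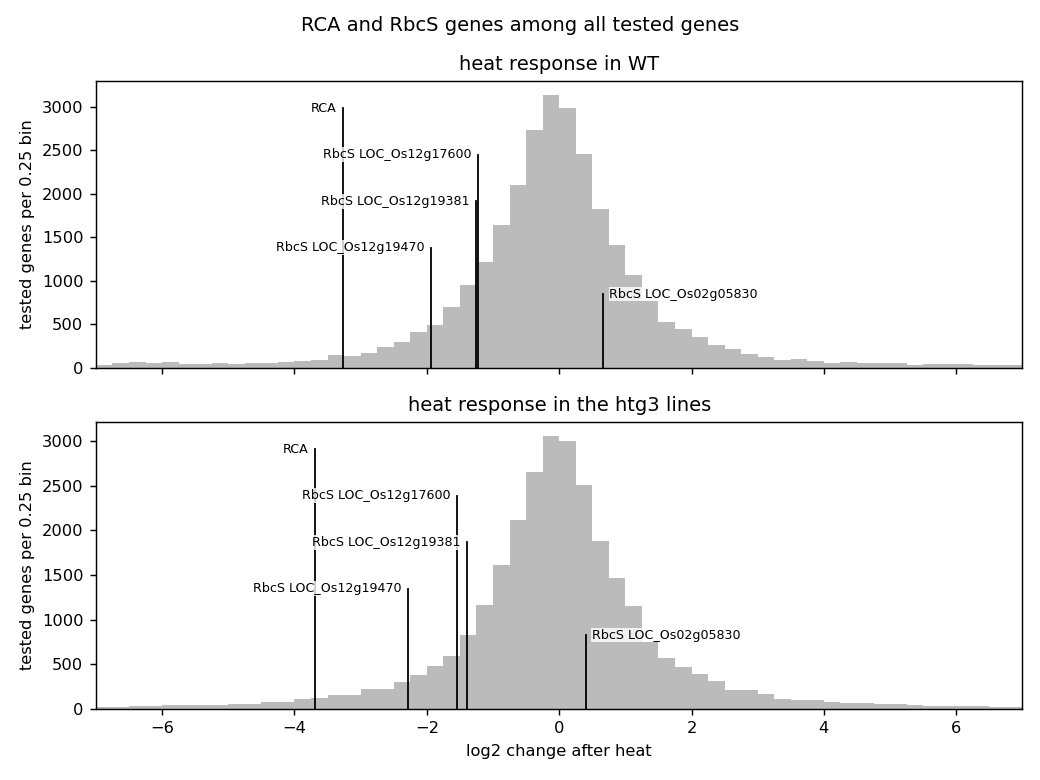
Distribution of log2 changes after heat over the 28823 tested genes in bins of 0.25, in WT (top) and in the htg3 lines (bottom), cut at -7 and 7. Lines mark RCA and the 4 RbcS genes, their heights serve only to separate the names. RCA lies at -3.27 and -3.69, in the lower tail, and LOC_Os02g05830 lies above 0 at 0.66 and 0.40.

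Ratios of counts within a library do not depend on how libraries were scaled. Such a ratio compares changes and, without gene lengths, not levels of both genes. The 4 ratios were chosen after the values were seen, so their p-values are no independent support for the falls given above. Each ratio was tested by an exact two-sided permutation test over the libraries within each genotype (720 arrangements, smallest possible p = 0.0028). The share of all gene pairs whose ratio separates the treatments was not computed. The ratio of RCA to the RbcS sum in untreated libraries was 0.873, 0.958 and 0.956 in WT, 1.22 and 1.74 in cr12 and 0.914 and 0.594 in cr2. After heat it was 0.292, 0.207 and 0.212 in WT, 0.276 and 0.313 in cr12 and 0.197 and 0.177 in cr2.

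RCA thus fell by more than the RbcS sum in every genotype, and no heat-treated library overlapped an untreated one. The log2 difference of the ratio, heat minus untreated, was -2.09 over all genotypes (exact permutation p = 0.0028, the smallest possible, 0.0037 adjusted over the 4 ratios). It was -1.99 in WT, -2.31 in cr12 and -1.98 in cr2.

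Within the RbcS copies, LOC_Os12g19470 fell by more than the other 2. Its ratio to LOC_Os12g17600 ran from 0.222 to 0.333 without heat and from 0.13 to 0.195 after it, a log2 difference of -0.75 (exact permutation p = 0.0028, adjusted 0.0037). By genotype that difference was -0.69 in WT, -1.19 in cr12 and -0.36 in cr2. Its ratio to LOC_Os12g19381 ran from 0.34 to 0.477 without heat and from 0.198 to 0.281 after it, a log2 difference of -0.81 (exact permutation p = 0.0028, adjusted 0.0037).

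The ratio of LOC_Os12g19381 to LOC_Os12g17600 overlapped between treatments, at 0.465 to 0.809 without heat and 0.602 to 0.784 after it. Its log2 difference was 0.06 (exact permutation p = 0.61), made up of -0.22 in cr12 and 0.42 in cr2. How reads were split among near-identical copies touches these 3 ratios, and its part in them was not tested.

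**Figure D3:**
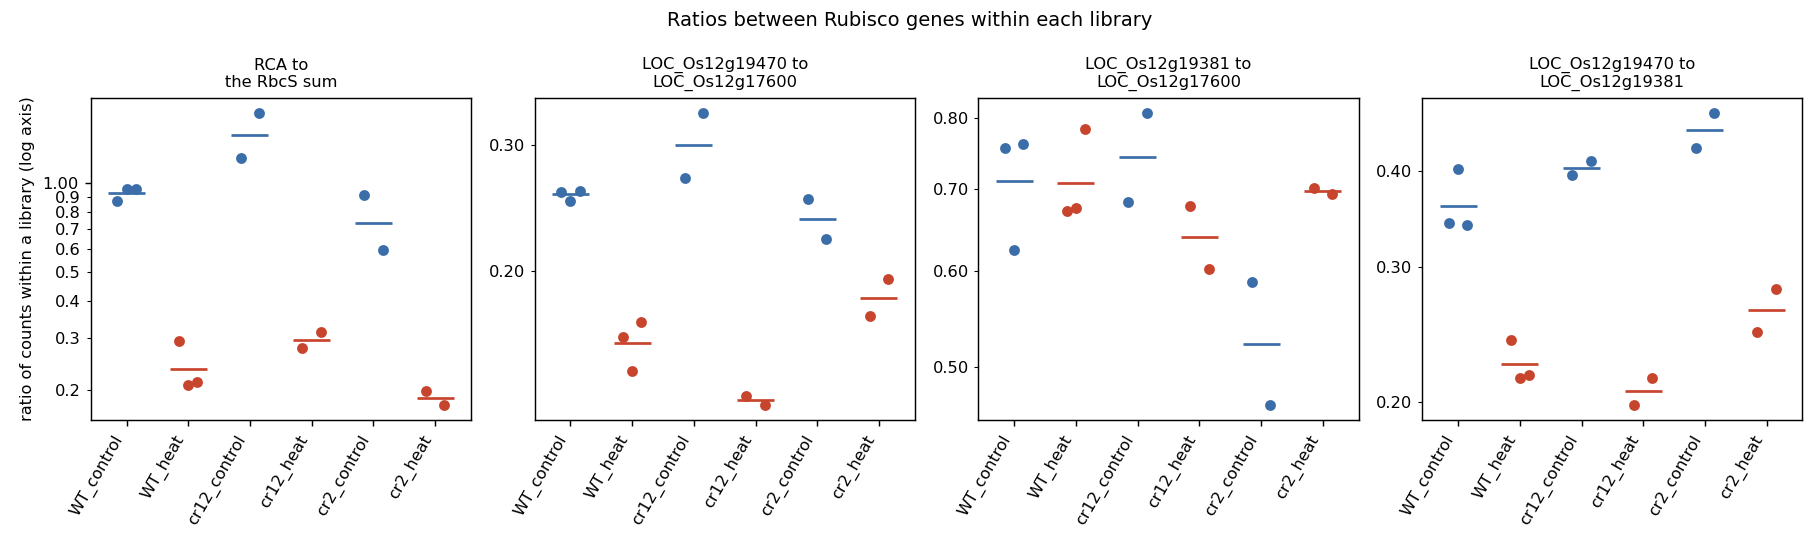
Ratio of counts within each library (log axis) for RCA to the sum of 3 chromosome 12 RbcS copies and for each pair of these copies. Points are libraries, blue untreated and red heat-treated, and bars are geometric group means. RCA to the RbcS sum lies at 0.594 to 1.74 without heat and at 0.177 to 0.313 after it, while LOC_Os12g19381 to LOC_Os12g17600 overlaps between treatments.

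The htg3 lines, both weighted equally, showed no called difference from WT in any of the 5 genes. An equal weight can hide lines that lie on opposite sides of WT, and neither line was tested against WT alone. The mean RbcS sum in untreated plants was 12049 CPM in cr12, 17203 CPM in WT and 24233 CPM in cr2. In heat-treated plants it was 3483.5, 6915 and 9471 CPM in the same order. Untreated cr2 ran from 17554 CPM upward, and untreated WT reached 18119 CPM. Without heat, 0 of 5 were called by edgeR, where 3.07% of tested genes were, and 0 passed an unadjusted p of 0.05 or were called by DESeq2 or voom. The log2 differences, htg3 minus WT, were 0.11 for RCA (95% interval -0.30 to 0.52), 0.06, -0.16 and 0.09 for LOC_Os12g17600, LOC_Os12g19381 and LOC_Os12g19470, and 0.45 for LOC_Os02g05830. The sign for LOC_Os12g17600 and LOC_Os12g19470 turned without cr2_control replicate 2, at -0.21 and -0.12, and without cr12_control replicate 1, at -0.13 and -0.01. That of LOC_Os12g17600 also turned without WT_control replicate 3, at -0.02.

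After heat, again 0 of 5 were called by edgeR, where 7.21% of tested genes were, and 0 passed an unadjusted p of 0.05 or were called by DESeq2 or voom. RCA differed by -0.31 ± 0.21 (95% interval -0.71 to 0.10, edgeR, adjusted p = 0.4). The chromosome 12 copies differed by -0.31 to -0.25 and LOC_Os02g05830 by 0.19.

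The difference of both heat responses, htg3 minus WT, was called for 0 of 5 genes by edgeR, where 0.114% of tested genes were called, and 0 passed an unadjusted p of 0.05 or were called by DESeq2 or voom. For RCA it was -0.42 ± 0.29 (95% interval -0.99 to 0.16, edgeR, adjusted p = 0.58). The other 4 genes lay between -0.34 and -0.14.

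With all 14 libraries fitted, the chromosome 12 RbcS copies were lower in cr12 than in cr2 after heat. Of the 5 genes 3 were called lower, where 3.45% of tested genes were called lower. These 3 are the copies that may share reads, so they may not count as 3 separate results. Their sum stood at 2585 to 4382 CPM in cr12 and at 8366 to 10575 CPM in cr2. After heat the copies stood in cr12 at 2418 and 1493 CPM (LOC_Os12g17600), 1639 and 899 CPM (LOC_Os12g19381) and 325 and 193 CPM (LOC_Os12g19470), under both cr2 libraries in each case. The share of all tested genes lower without overlap between these groups was not counted, so this separation has no background to set it against. The log2 differences, cr12 minus cr2, were -1.36 ± 0.36 (edgeR, adjusted p = 0.048), -1.47 ± 0.30 (adjusted p = 0.016) and -1.85 ± 0.31 (adjusted p = 0.0073). RCA lay lower by -0.80 ± 0.27 without a call by edgeR (adjusted p = 0.12) and with one by DESeq2 (adjusted p = 0.036, range over the alternatives other than single libraries left out 0.036 to 0.17). With 1 library left out the difference of RCA ran from -1.10 without cr12_heat replicate 1 to -0.50 without cr12_heat replicate 2 (edgeR, adjusted p from 0.057 to 0.61).

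These calls rest on single libraries of groups of 2. Without cr12_heat replicate 2 no gene was called, with differences of -1.02, -1.06 and -1.48 for the 3 copies (edgeR, adjusted p = 0.38, 0.18 and 0.1). Without cr2_heat replicate 2 none was called either, at -1.16, -1.27 and -1.55 (edgeR, adjusted p = 0.27, 0.13 and 0.072). LOC_Os12g17600 was called in 5 of the 14 fits with 1 library left out, losing its call also without any 1 untreated WT library, WT_heat replicate 1 or 2, cr12_heat replicate 1 or cr2_heat replicate 1 (adjusted p = 0.056 to 0.1). The other 2 copies were called in 12 of 14. With only the 2 groups in the fit, 1 copy was called, LOC_Os12g19470, and with RLE size factors LOC_Os12g17600 lost its call (-1.34, edgeR, adjusted p = 0.058, range over the alternatives other than single libraries left out 0.0021 to 0.068). Of the libraries compared, cr12_heat replicate 2 also had the highest HSP101, at 7093 CPM against 4842 CPM in replicate 1 and 2971 and 3656 CPM in cr2. Its part in the difference was not tested. Of the 5 leaf markers PSBS1 was called lower in cr12 (-0.63 ± 0.16, edgeR, adjusted p = 0.045), where 3.45% of tested genes were. The other 4 lay at -3.62 to -0.54. The leaf marker sum after heat was 10759 to 13329 CPM in cr12 and 19435 to 20885 CPM in cr2. The root marker sum was 23 to 27.4 CPM in cr12 and 14.1 to 16.3 CPM in cr2. Of the 5 root markers LSI1 was called higher in cr12 (0.77 ± 0.20, edgeR, adjusted p = 0.047), where 627 of the 28823 tested genes were. The others were near 0 in these libraries, with RCC3 at 0.0896 to 0.162 CPM in cr12 and 0.0865 to 0.808 CPM in cr2, AMT1;2 at 0 in cr12 and up to 0.17 CPM in cr2, NRT2.1 up to 0.123 CPM in cr12 and at 0 in cr2, and LSI2 at 0. The part of these markers was not tested.

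Without heat RCA showed a log2 difference between the lines of 0.00 ± 0.27 (95% interval -0.53 to 0.53). The chromosome 12 copies lay lower in cr12 by -1.23 ± 0.36, -0.70 ± 0.29 and -0.88 ± 0.31, and 0 of 5 genes were called by edgeR, where 3.8% of tested genes were. Of the 5, 3 passed an unadjusted p of 0.05, 2 were called by DESeq2 and 0 by voom. Without cr2_control replicate 1, LOC_Os12g17600 (-1.64) and LOC_Os12g19470 (-1.23) were called (edgeR, adjusted p = 0.023 and 0.045; ranges over the 14 libraries left out in turn 0.023 to 0.56 and 0.045 to 0.67). Without cr2_control replicate 2 the 3 copies differed by -0.72, -0.41 and -0.50, and without the second untreated library of both lines by -0.38, -0.16 and -0.27. This difference came with wide gaps between replicates. The RbcS sum was 9791 CPM in cr12_control replicate 2 against 14307 CPM in replicate 1, and 30912 CPM in cr2_control replicate 2 against 17554 CPM in replicate 1. RCA in the same pairs was 17053 against 17419.6 CPM and 18372 against 16037 CPM. HSP101 was at 8.73 CPM in cr12_control replicate 2 and at 0.571 CPM in cr2_control replicate 2, the highest and the lowest untreated values.

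**Figure D4:**
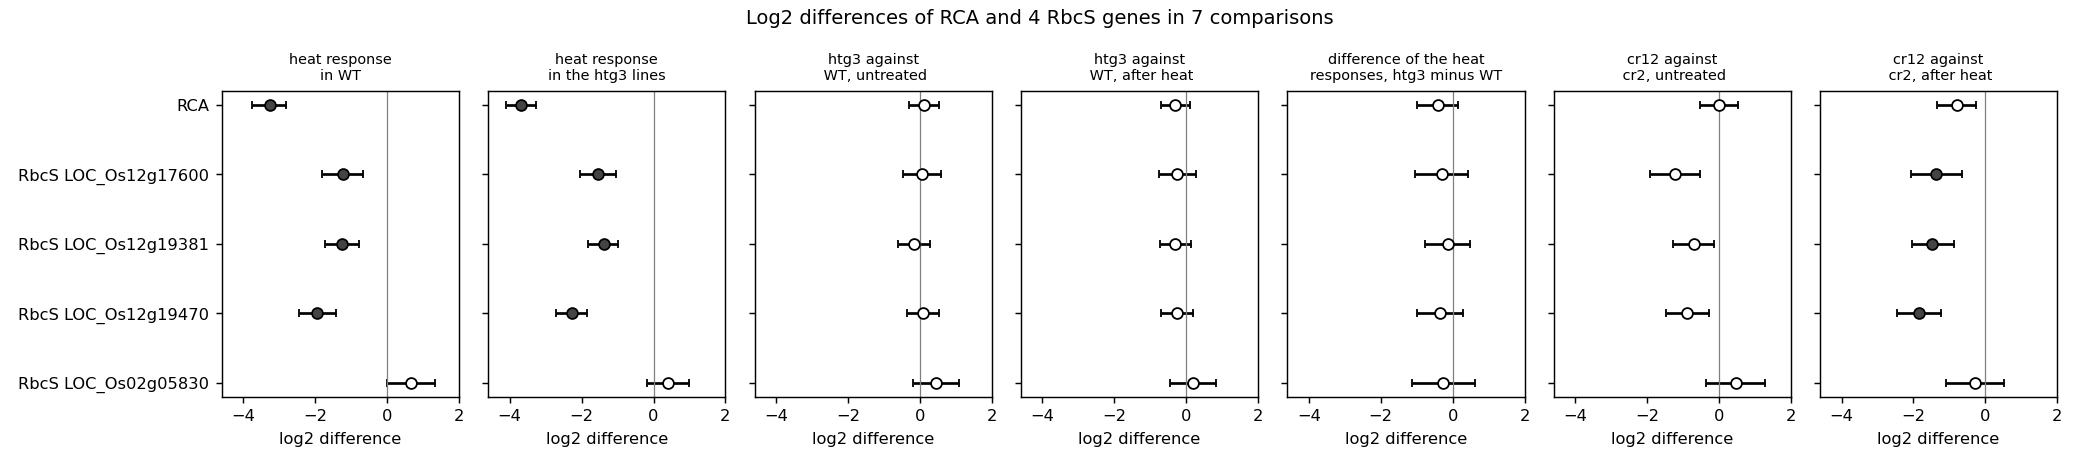
Log2 differences of RCA and 4 RbcS genes (points) with approximate 95% intervals (bars) in the 7 comparisons. Points are filled where called by edgeR at an adjusted p under 0.05. Filled points stand in both heat responses (4 genes each, from -3.69 to -1.23) and in cr12 against cr2 after heat (3 RbcS copies), and none in the other 4 comparisons.

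Across the 7 heat-treated libraries RCA and the RbcS sum were compared on the log2 scale, with Pearson's r = 0.909 (exact permutation p = 0.013, adjusted over 6 relations 0.058) and Spearman's rho = 0.714 (permutation p = 0.088, adjusted 0.26). Without the 2 libraries farthest from the median, both of cr12_heat, r was 0.729. Across the 7 untreated libraries r was 0.302 (exact permutation p = 0.53) with rho = 0.286 (permutation p = 0.56). It turned to r = -0.129 without the 2 farthest libraries, cr12_control replicate 2 and cr2_control replicate 2. None of the 6 relations passed the adjustment. All 6 relations pool genotypes, and the permutations exchanged libraries across genotypes. Differences between genotypes thus enter r, rho and their p-values, and relations within a genotype were not computed.

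With genotypes pooled and all libraries kept, HSP101 and the RbcS sum had a negative r in both treatments. After heat r was -0.834 (exact permutation p = 0.029, adjusted 0.058) with rho = -0.75 (permutation p = 0.066), and r = -0.648 without the 2 farthest libraries. Without heat r was -0.802 (exact permutation p = 0.029, adjusted 0.058) with rho = -0.607 (permutation p = 0.17), and r = 0.193 without cr12_control replicate 2 and cr2_control replicate 2, so this relation rests on those libraries. HSP101 and RCA had r = -0.758 after heat (exact permutation p = 0.052, adjusted 0.078) with rho = -0.536 (permutation p = 0.24), and r = -0.636 without the 2 farthest libraries. Without heat r was 0.15 (exact permutation p = 0.78) with rho = 0.071 (permutation p = 0.91), and r = 0.782 without cr12_control replicate 2 and cr2_control replicate 2.

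Other enzymes of the Calvin cycle fell after heat alongside Rubisco's genes, by less than RCA. Of 11 listed genes 8 were called lower and 1 higher in WT, and 10 lower and 1 higher in the htg3 lines, where 26.3% and 24.8% of tested genes were called lower and higher in WT and 28.5% and 27.6% in the htg3 lines. The lowest in WT were cpFBA, the plastid aldolase (-1.56 ± 0.22, edgeR, adjusted p = 7.9e-05), GAPA, a subunit of plastid glyceraldehyde-3-phosphate dehydrogenase (-1.54 ± 0.25, adjusted p = 0.00028), and TKL, transketolase (-1.50 ± 0.15, adjusted p = 4.2e-06). The lowest in the htg3 lines were cpFBA (-2.18 ± 0.19), PRK, phosphoribulokinase (-2.04 ± 0.17), and GAPA (-1.81 ± 0.22). The median log2 change was -1.22 in WT and -1.36 in the htg3 lines, and the called falls ran from -1.56 to -0.48 in WT and from -2.18 to -0.40 in the htg3 lines.

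The 1 gene that rose was CP12, which encodes a small protein that binds PRK and glyceraldehyde-3-phosphate dehydrogenase and holds them inactive in the dark. It stood at 437 to 485 CPM in untreated WT and at 1735 to 2167 CPM after heat (log2 change 2.07 ± 0.11, edgeR, adjusted p = 2.7e-08), and rose by 2.03 ± 0.10 in the htg3 lines. Its treatments did not overlap in any genotype, as was the case, in the same direction, for 28.3% of tested genes in WT, 35.4% in cr12 and 35.2% in cr2.

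Genes of photorespiration, the pathway that recycles the product of Rubisco's oxygenase reaction, fell in 10 of 11 listed members in WT, where 26.3% of tested genes were called lower, and in 10 of 11 in the htg3 lines, where 28.5% were. SGAT, serine:glyoxylate aminotransferase, fell most, from 1814 to 1909.6 CPM down to 346 to 419.7 CPM in WT (-2.28 ± 0.13, edgeR, adjusted p = 4.8e-08) and fell by 2.42 ± 0.11 on the log2 scale in the htg3 lines. It was followed in WT by GLDP, a subunit of glycine decarboxylase (-1.49 ± 0.14), and a glycolate oxidase gene, LOC_Os07g05820 (-1.48 ± 0.13). In the htg3 lines HPR1, hydroxypyruvate reductase (-1.94 ± 0.12), and GLDP (-1.83 ± 0.12) came next. GDCH, another subunit of glycine decarboxylase, was not called, at -0.03 ± 0.18 and -0.31 ± 0.15. The list's median was -1.26 in WT and -1.69 in the htg3 lines.

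The plastid chaperonins, whose complexes fold Rubisco's large subunit, went the other way. All 3 listed subunits rose in WT and in the htg3 lines, where 24.8% and 27.6% of tested genes were called higher. CPN60B1 stood at 389, 305 and 352 CPM in untreated WT and at 2812, 2652 and 2761 CPM after heat (2.98 ± 0.15, edgeR, adjusted p = 2.1e-08). CPN60B2, at 11.1 to 13.6 CPM in untreated WT and 150.9 to 165 CPM after heat, rose by 3.64 ± 0.12, and CPN60A, at 222 to 278 CPM and 887 to 1017 CPM, by 1.93 ± 0.16. In the htg3 lines these genes rose by 2.89 ± 0.13, 3.27 ± 0.10 and 1.73 ± 0.14. Every heat-treated library lay above every untreated one for each of them, as for 16.6% of tested genes.

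**Figure D5:**
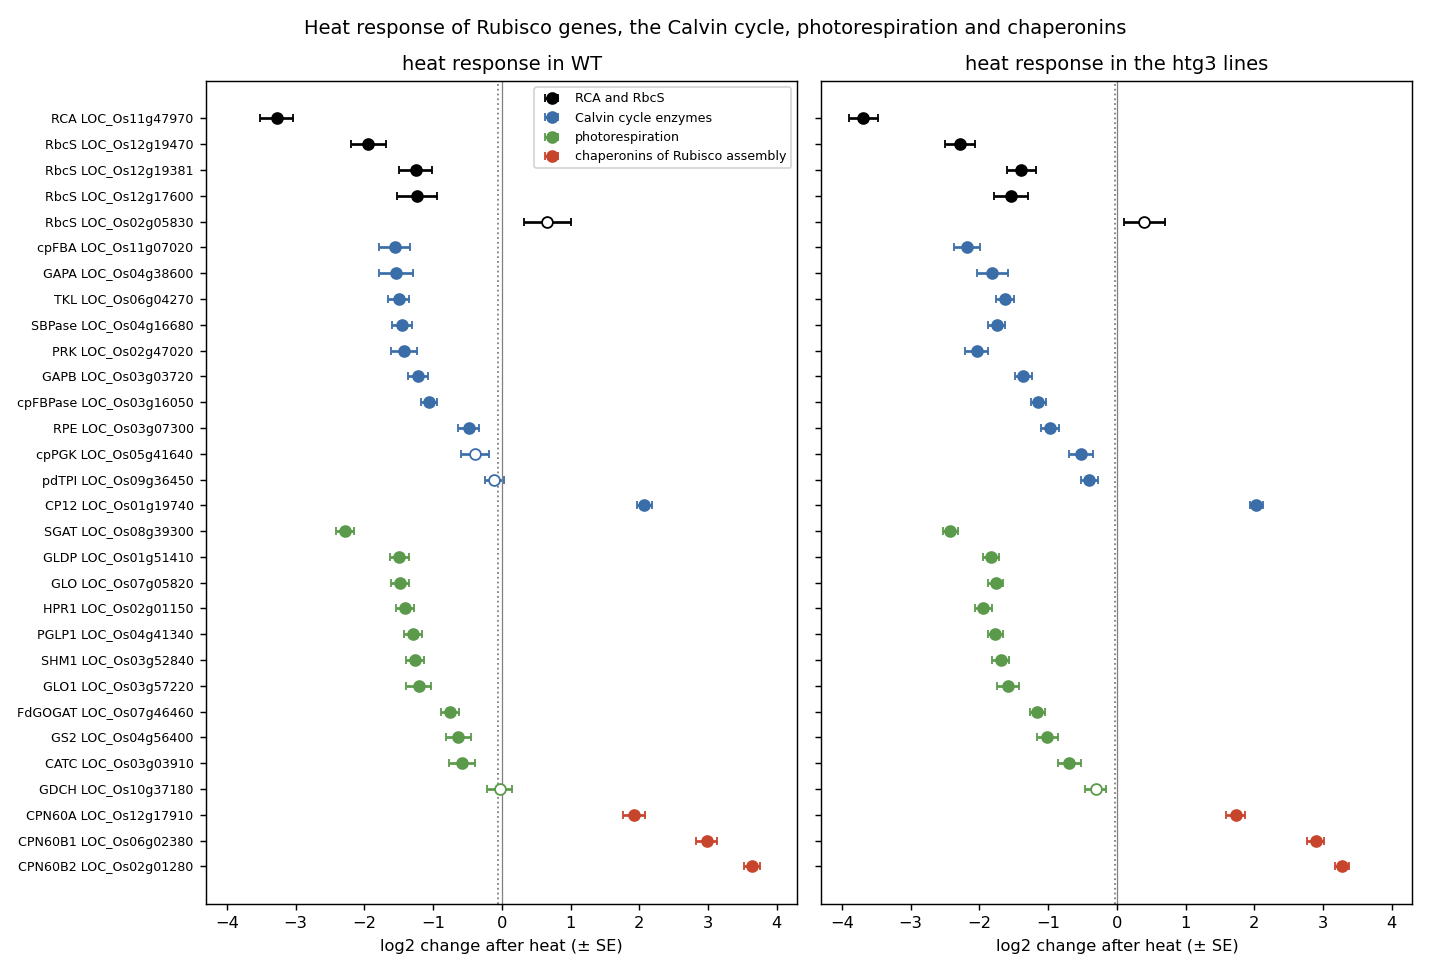
Log2 change after heat (± SE) of RCA and RbcS, the Calvin cycle list, photorespiration and the chaperonins, in WT (left) and in the htg3 lines (right), filled where called by edgeR at an adjusted p under 0.05. The dotted line is the median of all tested genes (-0.05 and -0.03). RCA is lowest in both panels, and CP12 and the 3 chaperonins stand between 1.73 and 3.64.

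Between htg3 and WT, after heat HPR1 was lower in the htg3 lines (-0.67 ± 0.12, edgeR, adjusted p = 0.011), the 1 call among the 25 listed genes, where 3.74% of tested genes were called lower. Of the Calvin cycle genes 0 were called by edgeR or voom, 2 by DESeq2, and 3 passed an unadjusted p of 0.05, and of the photorespiration genes DESeq2 called 4, voom 3, and 5 passed an unadjusted p of 0.05. With 1 library left out, edgeR called 2 photorespiration genes without cr2_control replicate 1 or 2 and 4, with 2 Calvin cycle genes, without WT_heat replicate 3. Without heat 0 of the 25 were called by edgeR, DESeq2 or voom, with 1 gene of each list under an unadjusted p of 0.05. The difference of heat responses was called for 0 of the 25 by edgeR or voom and for 1 photorespiration gene by DESeq2. Unadjusted, 2 Calvin cycle genes, 1 chaperonin and 4 photorespiration genes passed 0.05.

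Between the lines after heat, the Calvin cycle list moved with the RbcS copies. Of its 11 genes 8 were called lower in cr12 than in cr2, where 3.45% of tested genes were, led by GAPA (-1.41 ± 0.31, edgeR, adjusted p = 0.022), cpPGK, phosphoglycerate kinase (-1.13 ± 0.25, adjusted p = 0.023), and PRK (-1.05 ± 0.23, adjusted p = 0.025). Of the 11 photorespiration genes 3 were called lower, GDCH by -1.27 ± 0.22 (adjusted p = 0.0081), GS2, plastid glutamine synthetase, by -0.82 ± 0.22 (adjusted p = 0.048), and PGLP1, phosphoglycolate phosphatase, by -0.59 ± 0.16. No call in either list was left without cr12_heat replicate 2 or without cr2_heat replicate 2, and 1 in each list without cr2_heat replicate 1. Without cr12_heat replicate 1 the lists had 4 and 1 calls, and without WT_control replicate 1 or 3 or WT_heat replicate 1 they had 5 and 1. The photorespiration list had 1 call without WT_control replicate 2, WT_heat replicate 2 or either untreated cr12 library. Of the chaperonins 0 were called by edgeR or voom, 1 by DESeq2, and 1 passed an unadjusted p of 0.05. Without heat CPN60B1 and CPN60A were lower in cr12 (-0.87 ± 0.17 and -0.85 ± 0.19, edgeR, adjusted p = 0.024 and 0.037), as was GDCH (-1.07 ± 0.22, adjusted p = 0.025), where 2.24% of tested genes were called lower. All 3 of these calls were lost without cr12_control replicate 1 or cr2_control replicate 2. Without cr12_control replicate 2 that of GDCH was lost, and without WT_control replicate 3 or cr2_control replicate 1 just 1 chaperonin was called.

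Likeness of pattern was measured as the root-mean-square difference in log2(CPM + 0.5), each gene centred on its mean over the 14 libraries, among genes with a mean of at least 100 CPM. The genes nearest to RCA were LOC_Os11g10990 (0.22), LOC_Os02g38020 (0.25), LOC_Os03g61090, LOC_Os05g02420 and LOC_Os02g39360 (0.28 each). LOC_Os12g19470 was 99th (0.81) of 1858, and among the listed pathway genes SGAT came closest, at 66th (0.66).

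Nearest to the RbcS sum were LOC_Os05g33280 (0.16), GAPA, LOC_Os07g28610 and LOC_Os03g55720 (0.19 each), and LOC_Os02g51470 (0.20). The Calvin cycle genes SBPase, sedoheptulose-bisphosphatase, and PRK came 20th (0.29) and 25th (0.31) of 1855, and RCA 1190th. RCA and the RbcS sum lay 1.1 apart by this measure, so none of the 5 genes named for each could be shared. The measure is not scaled to the size of each gene's change, so a gene with the same direction but a larger fall ranks far away. GDCH, which was not called after heat, came 350th to the RbcS sum, nearer than RCA. The measure is a description with no test.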

How the data were processed

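The authors deposited 1 table of estimated counts per gene with MSU locus IDs. The submitters' processing notes name StringTie 1.3.3b, DESeq2, HISAT2 2.1.0 and fastp 0.20.1. Their roles and settings and the genome build are not given in the sources used here. The values are whole numbers, so rounding changed nothing. Low values gather at multiples of 4 (9196 values equal 4, 3918 equal 3 and 5346 equal 5), so a fragment may be worth about 4 counts, and counting error is larger than the counts alone give.

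Under R 4.3.3, edgeR 4.0.16 scaled the counts by TMM, dropped low genes with filterByExpr and ran its quasi-likelihood test on a fit of 6 group means to all 14 libraries, with 7 comparisons. A gene was called where its p, adjusted by Benjamini and Hochberg's method, was under 0.05 over the 28823 tested genes, which hold 99.99% of counts. Every adjusted p of a gene is from edgeR unless another tool is named. The SE is approximate, the size of the log2 change over the root of F. Intervals named 95% are 1.96 SE either way, which is too narrow for this test with few libraries. For GDCH after heat in the htg3 lines, the interval was -0.61 to -0.01 at an unadjusted edgeR p of 0.069. CPM are per TMM-scaled library size. The fit was also run on simulated data, only for the heat response in WT and for htg3 against WT without heat. Its outcome is not given here, and comparisons between the lines were not simulated. DESeq2 1.42.0, limma 3.58.1 (voom), other scalings and filters, counts divided by 4, summed copies and libraries left out were alternatives. Permutations used Python 3.11.15 and SciPy 1.17.1.

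The genes, lists, ratios and relations were chosen with earlier results of these data known. In each list, up to 3 called genes with the largest fall and 2 with the largest rise were named. Locus names come from hand-written lists: of 46 listed loci, 19 could be looked up by symbol in the name table (assembly ASM3414082v1), and all 19 lie on the chromosome their ID gives. A shared chromosome is a weak check that does not settle which gene an ID names. RCA was among the 19. The RbcS loci, the chaperonins, CP12, PRK, SGAT, HPR1 and GLDP were not.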

Additional observations from a re-analysis of the deposited data

How the results depend on the processing

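The heat falls of RCA and the 3 chromosome 12 RbcS copies kept their direction and call under every alternative run, in WT and in the htg3 lines. With 1 library left out, calls among the 5 genes ranged from 4 to 4 in WT, 4 to 5 in the htg3 lines, 0 to 0 in the 3 comparisons of htg3 with WT, 0 to 2 for cr12 against cr2 without heat and 0 to 3 after it. For the last pair of comparisons, DESeq2 called 2 and no filter on low counts 1 without heat, and a fit of only the groups compared called 1 and RLE size factors 2 after heat. Genes called over the whole table ranged, with 1 library left out, from 13141 to 14522 (heat in WT), 14604 to 16366 (heat in htg3), 331 to 1049 (htg3 against WT, untreated), 718 to 2498 (after heat), 0 to 84 (difference of responses), 64 to 1746 (cr12 against cr2, untreated) and 87 to 1757 (after heat).

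With all libraries edgeR called 885 (untreated), 2077 (after heat) and 33 genes (difference of responses) for htg3 against WT, and 1094 (untreated) and 1620 (after heat) for cr12 against cr2. DESeq2 called 2230, 4404, 1293, 3141 and 2912 in the same order. The difference of responses gave 10 calls with voom, 12 with RLE size factors, 126 without a filter and 50 with counts divided by 4. Fits of only the groups compared gave 758 (htg3 against WT after heat), 22 and 628 (cr12 against cr2). Without cr2_control replicate 2 and WT_heat replicate 2, 1004 (htg3 against WT after heat) and 67 (cr12 against cr2, untreated) were called. Without the second untreated library of both lines, an alternative chosen after seeing the data, 223 (htg3 against WT, untreated), 6 (difference of responses) and 47 (cr12 against cr2, untreated) were called. The pair cr2_control replicate 2 and WT_heat replicate 2 also came from these data, as libraries that stood apart in earlier results. The cause of the changed counts was not tested.

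Single values that turned sign had no call in either fit. For htg3 against WT without heat, LOC_Os12g17600 went to -0.01 (copies summed), -0.21 (first pair of libraries out) and -0.07 (second untreated libraries out), and from -0.21 to 0.26 with 1 library left out. LOC_Os12g19470 went to -0.01, -0.12 and -0.04 there, and from -0.12 to 0.26. For the difference of responses, without the first pair LOC_Os12g17600 went to 0.11 and LOC_Os12g19381 to 0.13, the latter from -0.42 to 0.03 with 1 library left out. LOC_Os02g05830 went to 0.12 for that difference and to -0.26 for cr12 against cr2 untreated without the second untreated libraries. With 1 library left out it ran from -0.56 to 0.12 and from -0.28 to 0.93 there, from -0.84 to 0.15 for cr12 against cr2 after heat and from -0.12 to 0.41 for htg3 against WT after heat. Total-count scaling moved the median of all genes by -0.147 in WT and -0.113 in the htg3 lines. The share of higher calls went from 60.6 to 25% for the difference of responses (RLE), from 48.1 to 61.8% for htg3 against WT after heat and from 41 to 58.9% for cr12 against cr2 untreated (total counts).

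No paired analysis was possible because the labels number no replicates, and the numbers used here only name libraries in accession order. The planned search of promoters was not run. Groups of 2 libraries limit the comparisons between lines, and sharing of reads among RbcS copies was not measured.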
